A study of Arabidopsis thaliana with 24 samples.

Results

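The cytochrome P450 genes analysed here were 22 of the 13356 genes to which the array annotation assigned a probe set of their own. A gene was taken as a member where its symbol in the array annotation or in the reference gene table (assembly TAIR10.1) was CYP followed by a family number, a subfamily letter and a gene number. Only probe sets assigned to 1 gene were used, and each of the 22 members had 1 such probe set. The reference table lists 225 genes with symbols of this form, and the other 203 were not analysed here. The annotation gave no symbol for 8730 of the 22746 probe sets tested, so the array may hold probes for some of them. The subfamily CYP71B supplied 18 of the 22 members, and CYP51G, CYP78A, CYP79A and CYP84A supplied 1 each. The families CYP81 and CYP94 had 0 members, so that families could be compared only as CYP71B against 4 single genes.

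Cytochromes P450 are haem enzymes, mostly bound to the endoplasmic reticulum, that insert oxygen into small molecules with electrons passed on by a reductase. Plants use them to make and break down hormones, cell wall and cuticle monomers, and defence compounds such as glucosinolates and camalexin. The CYP71 family is large in plants and many of its genes lie in tandem arrays, and for most CYP71B enzymes of Arabidopsis no role is given here.

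Transcripts were measured in whole Arabidopsis thaliana plants, grown in soil under short days, on 24 ATH1 arrays in 8 groups of 3. The genotypes were the wild-type accession Col-0, the mutant mkk1 (SALK_027645), the mutant mkk2 (Garlic_511-HO1) and mkk1/mkk2, in which both genes are disrupted. MKK1 and MKK2 encode mitogen-activated protein kinase kinases, which relay signals of stress and pathogen attack. Each genotype was sampled untreated and 24 h after BTH (benzothiadiazole, a synthetic compound that triggers responses like those of salicylic acid), and no mock-sprayed group was among them. The untreated Col-0 samples were titled as time 0 and the untreated mutants carried no time. The 100 µM spray is noted for 6 samples, those of mkk2 and mkk1/mkk2 after BTH. The notes of the other 18 samples give a control treatment, also for Col-0 and mkk1 after BTH, and a description shared by all samples calls them untreated Col-0. Groups were therefore taken from the titles, which the source names match. The labels do not say whether replicates A, B and C came from separate plants, so the p-values measure the spread between these samples, which may be technical. No probe set was assigned to MKK1 or MKK2 alone in the annotation, and the genotype labels were not checked with them.

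Values are log2 expression values as deposited, so that a difference of 1 is 2-fold. The arrays fell into 2 sets by their hybridization controls. The difference between the control transcripts bioC and bioD lay between -1.96 and -1.53 on the 12 arrays of Col-0 and mkk1/mkk2 and between -3.48 and -3.07 on the 12 arrays of mkk1 and mkk2. In comparisons of mkk1 or mkk2 with Col-0, the set of arrays and the genotype therefore cannot be told apart, whereas each BTH comparison, and mkk1/mkk2 against Col-0, lies within a set. Replicate A of untreated mkk1/mkk2 stood apart from its group, with a mean correlation of 0.933 with the other arrays against 0.961 and 0.962 for replicates B and C. For GAPDH, whose 3′ probe set minus its 5′ probe set is a sign of RNA quality, this difference lay between 0.70 and 1.18 in untreated Col-0 and between 0.60 and 0.73 after BTH. It went from 0.26 to 0.31 to -0.04 to 0.23 in mkk1, from 0.30 to 0.61 to -0.07 to 0.19 in mkk2 and from 0.29 to 1.27 to 0.14 to 0.52 in mkk1/mkk2, with 1.27 on replicate A of the untreated group. Its part in the BTH results was not tested. Replicate A of Col-0 after BTH and replicate B of untreated mkk2 had stood apart in an earlier analysis (mean correlations of 0.975 and 0.976 here), and fits without all 3 arrays are given at the end.

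Levels of the 22 genes differed widely between groups for some and hardly at all for others. The group means of 8 members spanned more than 1 on the log2 scale, and those of 11 members spanned less than 0.5. CYP71B23 had a span of 4.46, from a mean of 4.28 in untreated mkk2 to 8.73 in mkk1/mkk2 after BTH. CYP71B24 followed with a span of 3.68, CYP71B34 with 2.34, CYP71B26 with 2.28 and CYP71B36 with 2.1. These 5 genes, with CYP71B35 at a span of 1.98, all belong to a stretch of chromosome 3 that runs from CYP71B16 to CYP71B37. The stretch holds 25 annotated genes, of which 18 carry a P450 symbol and 11 are members here. The remaining members with a span above 1 were CYP71B6 on chromosome 2 with 1.63 and CYP78A9 on chromosome 3 with 1.43.

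**Figure D1:**
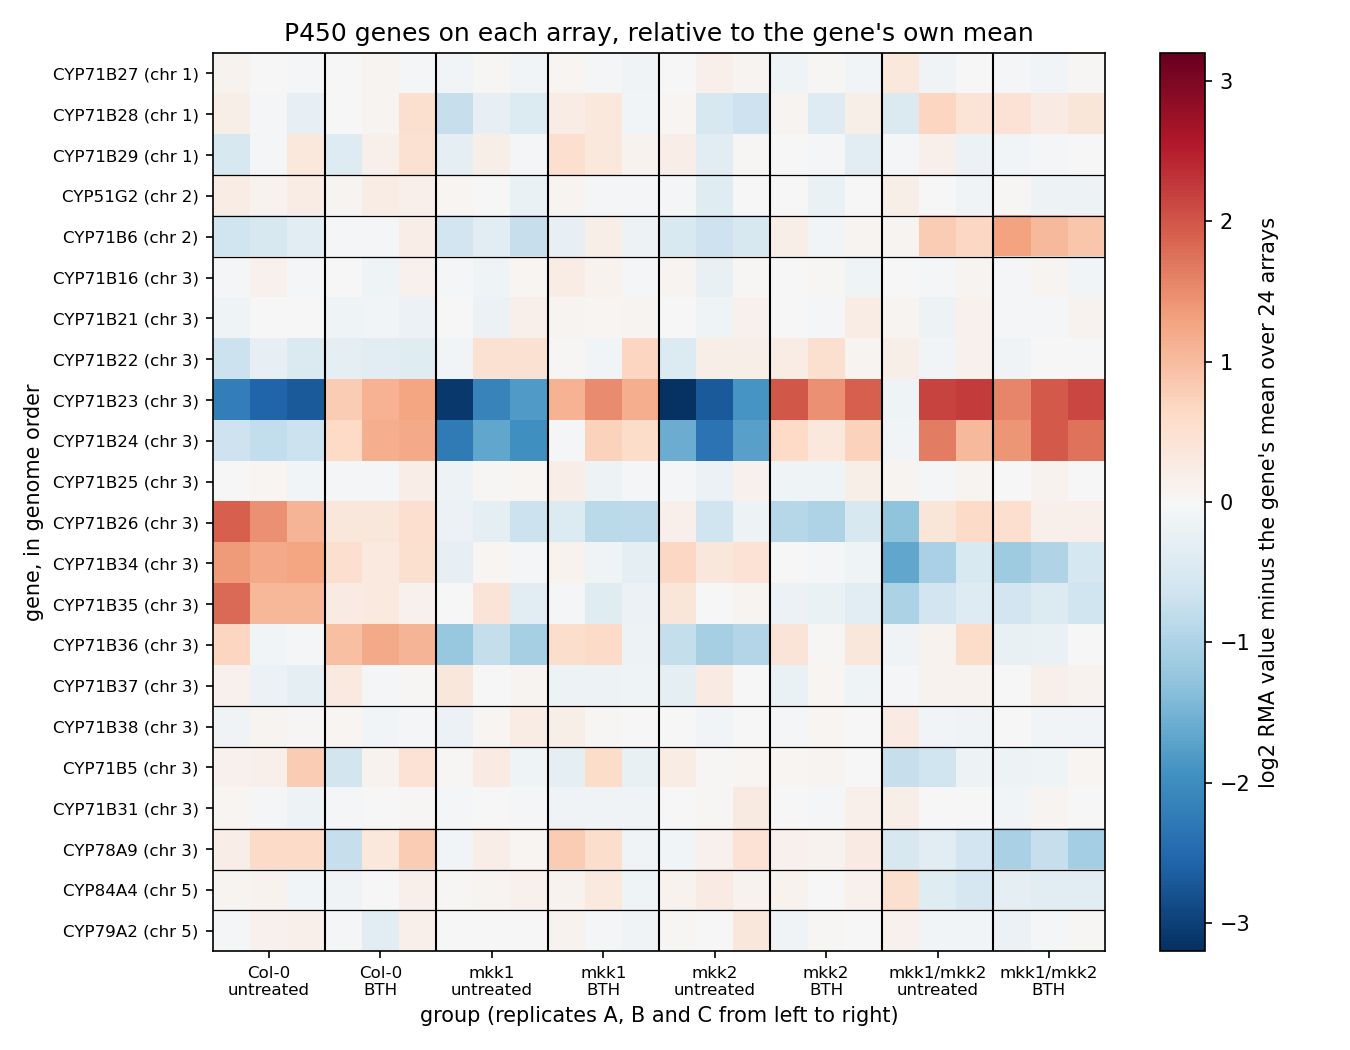
Each row is 1 of the 22 P450 genes in genome order and each column 1 array, with the replicates A, B and C of each of the 8 groups from left to right; the colour is the log2 value minus the gene's mean over the 24 arrays, red above and blue below it. Most of the colour lies in the rows from CYP71B23 to CYP71B36, and CYP71B23 has a span of group means of 4.46.

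In Col-0, BTH was followed by higher CYP71B23 (AT3G26210), CYP71B24 (AT3G26230) and CYP71B36 (AT3G26320) and by lower CYP71B34 (AT3G26300) and CYP71B35 (AT3G26310). These were 3 members called higher and 2 called lower of 22, with called meaning an adjusted p under 0.05 in limma's test over all 22746 probe sets. Of all probe sets 8.82% were called in this comparison, 4.55% higher and 4.27% lower. The median change of the 22 members was -0.02, beside -0.04 for all probe sets. All 5 called genes lie in the stretch of chromosome 3, and 0 of the 4 members outside CYP71B were called (0 at an unadjusted p under 0.05).

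CYP71B23 read 4.64, 4.29 and 4.17 on the untreated Col-0 arrays and 7.65, 7.97 and 8.11 after BTH. The groups lay more than 3 units apart at their nearest arrays, and the change was 3.54 ± 0.46 (SE), 11.7-fold, with an adjusted p of 3.97e-05. CYP71B24, which lies beyond 1 other gene from CYP71B23, read 5.81, 5.68 and 5.78 before and 7.10, 7.63 and 7.68 after. Its arrays also did not overlap, with a rise of 1.71 ± 0.32, 3.28-fold (adjusted p = 0.00165).

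The genes CYP71B34, CYP71B35, CYP71B36 and CYP71B37 lie side by side with no annotated gene between them, and they did not move together. CYP71B34 read 7.61, 7.45 and 7.51 untreated and 6.79, 6.55 and 6.75 after BTH, a fall to lower values on every array (-0.83 ± 0.21, 1.77-fold lower, adjusted p = 0.0143). CYP71B35 read 7.09, 6.34 and 6.34 untreated and 5.55, 5.61 and 5.43 after, again without overlap (-1.06 ± 0.20, 2.08-fold lower, adjusted p = 0.00187). Replicate A of untreated Col-0 was the high array of CYP71B35. CYP71B36 went the other way, from 5.93, 5.16 and 5.18 to 6.20, 6.45 and 6.32 (0.90 ± 0.22, 1.87-fold, adjusted p = 0.0137). CYP71B37 was near the bottom of the scale before and after, with means of 3.32 and 3.54. The Col-0 count fell to 3 without replicate B of Col-0 after BTH, when CYP71B34 and CYP71B36 lost their calls. CYP71B36 also lost its call without replicate B or C of untreated Col-0, and CYP71B34 without replicate A.

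Just outside the threshold were CYP71B26 and CYP71B6. CYP71B26 (AT3G26290) read 10.27, 9.81 and 9.44 untreated and 8.71, 8.72 and 8.89 after BTH. These arrays did not overlap, and the difference of -1.07 ± 0.35 had an adjusted p of 0.0615, or 0.00215 when replicate A of untreated mkk1/mkk2 was left out of the fit.

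**Figure D2:**
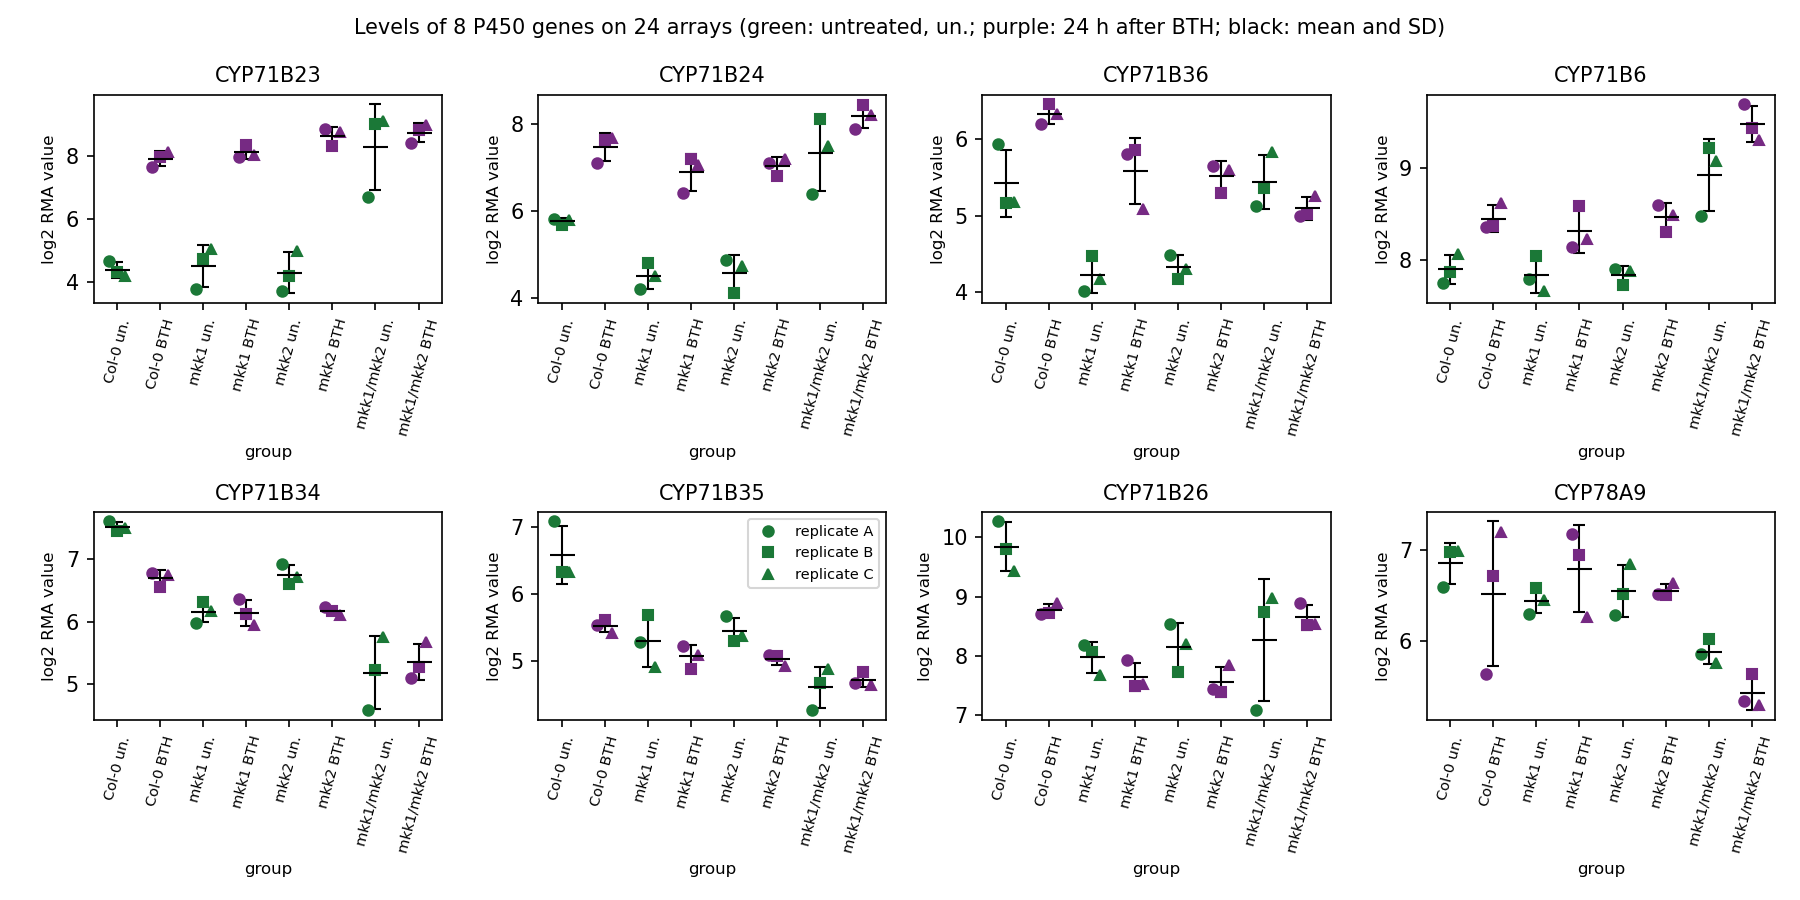
Each panel shows 1 gene on the 24 arrays, with the log2 value on the vertical axis (each panel has its own scale, none starting at 0), the 8 groups along the horizontal axis, circles, squares and triangles for replicates A, B and C, and black bars for the mean and SD of 3 arrays. CYP71B23 is low in the untreated Col-0, mkk1 and mkk2 groups (means 4.37, 4.50 and 4.28) and high in the other 5 groups, with replicate A of untreated mkk1/mkk2 in between at 6.70.

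In mkk1 and in mkk2 the 3 genes that rose in Col-0 were called higher as well. In mkk1, 3 members were called higher and 0 lower, against 8.57% of all probe sets called, 4.77% higher and 3.81% lower. In mkk2, 4 members were called higher and 0 lower, against 10.7% of all probe sets, 6.2% higher and 4.55% lower. The members' median changes were 0.02 in mkk1 and 0.00 in mkk2, beside -0.01 and -0.06 for all probe sets.

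CYP71B23 went from 3.75, 4.71 and 5.03 to 7.97, 8.35 and 8.01 in mkk1, a rise of 3.61 ± 0.46 or 12.2-fold (adjusted p = 3.33e-05). In mkk2 it went from 3.69, 4.17 and 4.97 to 8.84, 8.30 and 8.75, a rise of 4.35 ± 0.46 or 20.4-fold (adjusted p = 1.90e-06). All BTH arrays of both mutants were above all their untreated arrays.

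CYP71B24 started lower in these mutants than in Col-0, at 4.19, 4.80 and 4.49 in mkk1 and 4.87, 4.10 and 4.73 in mkk2. After BTH it read 6.40, 7.20 and 7.05 in mkk1 (2.39 ± 0.32, 5.24-fold, adjusted p = 5.73e-05) and 7.11, 6.80 and 7.19 in mkk2 (2.47 ± 0.32, 5.53-fold, adjusted p = 2.39e-05). CYP71B36 rose by 1.36 ± 0.22 in mkk1 (adjusted p = 0.000512) and by 1.19 ± 0.22 in mkk2 (adjusted p = 0.00117), also without overlap of the arrays. The fourth gene called higher in mkk2 was CYP71B6, described with its role below.

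The genes that fell in Col-0 gave smaller differences in these mutants, where they started lower. CYP71B34 differed by -0.01 in mkk1 and by -0.57 in mkk2 (adjusted p = 0.0915, or 0.0154 without replicate A of untreated mkk1/mkk2), and CYP71B35 by -0.23 and -0.42 (adjusted p = 0.242 in mkk2). Neither gene was called in either mutant with all arrays in the fit.

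Tests of the difference in BTH response found no member that differed between mkk1 and Col-0 or between mkk2 and Col-0. For mkk1, 0 members were called by limma, against 0% of all probe sets. At an unadjusted p under 0.05 there were 3 members (CYP71B34, CYP71B35 and CYP71B37), beside 2237 of all 22746 probe sets. For mkk2, 0 members were called, against 0.022% of all probe sets. At an unadjusted p under 0.05 there was 1 member (CYP71B35), beside 873 of all 22746 probe sets. For CYP71B23 the response of mkk1 minus that of Col-0 was 0.07, with a 95% interval from -1.30 to 1.44, and for mkk2 it was 0.81, with an interval from -0.56 to 2.18. For CYP71B24 the intervals ran from -0.28 to 1.63 in mkk1 and from -0.20 to 1.71 in mkk2, so that these arrays do not separate equal responses from responses larger by 1 unit.

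**Figure D3:**
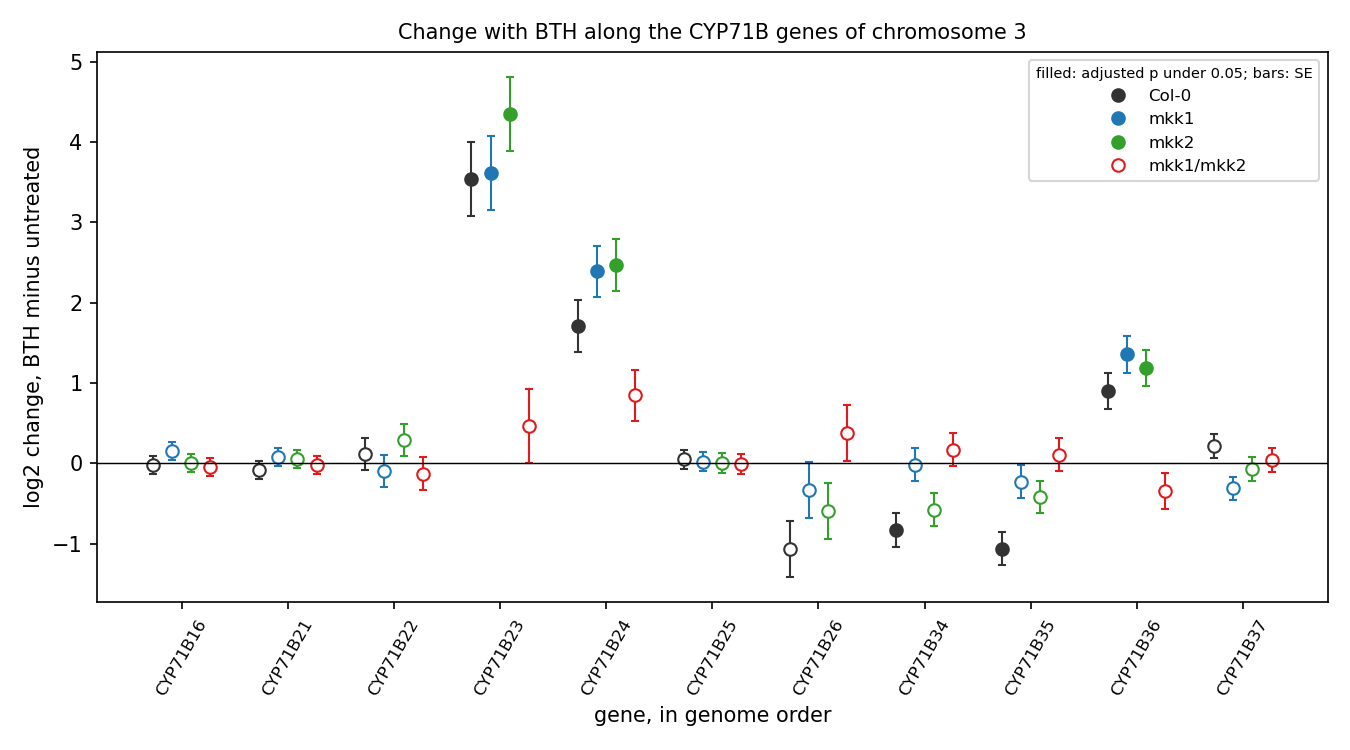
The log2 change with BTH (BTH minus untreated, vertical axis) is drawn for the 11 measured genes of the chromosome 3 stretch in genome order, in Col-0, mkk1, mkk2 and mkk1/mkk2; bars are standard errors and filled points have an adjusted p under 0.05. CYP71B23, CYP71B24 and CYP71B36 have filled points in 3 genotypes, and all points of mkk1/mkk2 are open.

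In mkk1/mkk2, no P450 gene was called between BTH and untreated plants. By limma 0 members were called, while 0.334% of all probe sets were called. At an unadjusted p under 0.05 there were 2 members (CYP71B6 and CYP71B24), beside 2770 of all 22746 probe sets. The members' median change was -0.03, beside -0.04 for all probe sets. CYP71B23 was already high, at 6.70, 9.02 and 9.09 in untreated plants, and read 8.41, 8.81 and 8.98 after BTH. The arrays overlapped, and the change was 0.46 ± 0.46 (adjusted p = 0.663). CYP71B24 read 6.38, 8.11 and 7.49 and then 7.88, 8.43 and 8.21, a difference of 0.85 ± 0.32 with an adjusted p of 0.323. In both genes replicate A of the untreated group was the low array. Without it the change of CYP71B23 turned to -0.32 (adjusted p = 0.910) and that of CYP71B24 was 0.37 (adjusted p = 0.820), and neither was called.

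The BTH response of mkk1/mkk2 differed from that of Col-0 for 3 members, 1 with a higher and 2 with a lower value, against 2.33% of all probe sets, 0.936% higher and 1.4% lower. CYP71B23 had a response smaller by 3.08 on the log2 scale (-3.08 ± 0.66, adjusted p = 0.0133), and without replicate A of untreated mkk1/mkk2 the difference was -3.87 (adjusted p = 2.77e-05). Fitted on the 12 arrays of these groups alone it had an adjusted p of 0.0842. CYP71B36 differed by -1.25 ± 0.32 (adjusted p = 0.0420), as it went from 5.13, 5.36 and 5.83 to 5.0, 5.02 and 5.26 in mkk1/mkk2. CYP71B35 differed by 1.17 ± 0.29 (adjusted p = 0.0328), with 4.27, 4.68 and 4.88 before and 4.68, 4.84 and 4.64 after BTH in mkk1/mkk2 and a fall in Col-0. The calls of CYP71B35 and CYP71B36 were lost in 11 and 17 of 30 other settings, among them each fit without 1 of the Col-0 BTH arrays. Without replicate A of untreated mkk1/mkk2 the adjusted p of CYP71B35 was 0.0546. CYP71B24 had a difference of -0.87 with an interval from -1.82 to 0.09 and was not called, but without that array it was called, at -1.34 (adjusted p = 0.0439). Without replicate C of untreated mkk1/mkk2, CYP71B34 (1.28, adjusted p = 0.00774) and CYP71B26 (1.80, adjusted p = 0.0454) were called as well.

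Untreated mkk1 and mkk2 had lower levels of 5 genes of the chromosome 3 stretch than untreated Col-0. In mkk1, 5 members were called lower and 1 higher, against 17.3% of all probe sets called, 9.46% higher and 7.83% lower. In mkk2, 5 were called lower and 0 higher, against 7.63%, 3.5% higher and 4.13% lower. The genes called lower were CYP71B24, CYP71B26, CYP71B34, CYP71B35 and CYP71B36 in both mutants. Since both comparisons use the same 3 untreated Col-0 arrays and cross the 2 sets of arrays, neither is a check of the other.

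CYP71B26 read 8.18, 8.06 and 7.68 in mkk1 and 8.53, 7.72 and 8.19 in mkk2, all below the lowest Col-0 array at 9.44. The differences were -1.87 ± 0.35 in mkk1 (3.65-fold lower, adjusted p = 0.00141) and -1.69 ± 0.35 in mkk2 (3.23-fold lower, adjusted p = 0.00673). CYP71B34 read 5.98, 6.31 and 6.18 in mkk1 and 6.92, 6.60 and 6.72 in mkk2, again below every Col-0 array (-1.37 ± 0.21, adjusted p = 0.000415, and -0.78 ± 0.21, adjusted p = 0.0270). CYP71B36 read 4.02, 4.48 and 4.17 in mkk1 and 4.49, 4.18 and 4.31 in mkk2, where the lowest Col-0 array was 5.16. For CYP71B24 the differences were -1.26 ± 0.32 and -1.19 ± 0.32, and for CYP71B35 they were -1.29 ± 0.20 and -1.14 ± 0.20. The gene called higher was CYP71B22 in mkk1 (0.77 ± 0.20, adjusted p = 0.0128), next to CYP71B23 in the stretch. In mkk2 the same gene differed by 0.45 with an adjusted p of 0.192. In mkk1 CYP71B22 lost its call without replicate A of untreated Col-0 or replicate B or C of untreated mkk1, and CYP71B24 lost it without replicate A of untreated mkk1. The 5 calls in mkk2 fell to 1 without replicate A of untreated Col-0, to 3 without replicate B of untreated Col-0 or replicate B of untreated mkk2, and to 0 when only the 6 arrays of the comparison were fitted.

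Untreated mkk1/mkk2 differed from untreated Col-0 in 9 of the 22 genes, 4 called higher and 5 lower. Of all probe sets 33.3% were called here, 16.1% higher and 17.2% lower, so that the share of the members (40.9%) was close to the background. The members' median difference was 0.04, beside -0.01 for all probe sets. These arrays share the untreated Col-0 group with the BTH comparison of Col-0, and the values are given side by side without reading a likeness from them.

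CYP71B23 and CYP71B24 were higher without any treatment. For CYP71B23 the difference was 3.90 ± 0.46, 15.0-fold (adjusted p = 1.63e-06), with all 3 arrays above the highest Col-0 value of 4.64, and it was 4.69 without replicate A. For CYP71B24 it was 1.57 ± 0.32, 2.97-fold (adjusted p = 0.000699), or 2.04 without replicate A. The third gene of the stretch that was called higher was CYP71B22, at 6.16, 5.88 and 6.09 against 5.28, 5.70 and 5.50 (0.55 ± 0.20, adjusted p = 0.0423), a call that was lost in 12 of 31 other settings, among them that without replicate A (adjusted p = 0.10).

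CYP71B34 and CYP71B35 were lower in untreated mkk1/mkk2. CYP71B34 read 4.58, 5.22 and 5.75, all more than 1 unit below the Col-0 arrays (-2.34 ± 0.21, 5.06-fold lower, adjusted p = 3.50e-08). For CYP71B35 the difference was -1.98 ± 0.20, 3.94-fold lower (adjusted p = 2.40e-07). CYP71B26 read 7.08, 8.74 and 8.98 against 10.27, 9.81 and 9.44 in Col-0 (-1.57 ± 0.35, adjusted p = 0.00125), and the difference shrank to -0.98 without replicate A (adjusted p = 0.00338). CYP71B36, lower in both other mutants, had a difference of 0.02 here (adjusted p = 0.971). CYP71B5 (AT3G53280), elsewhere on chromosome 3, read 4.96, 5.05 and 5.53 against 5.84, 5.85 and 6.50 (-0.88 ± 0.25, adjusted p = 0.00938), a call lost without replicate C of untreated Col-0.

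**Figure D4:**
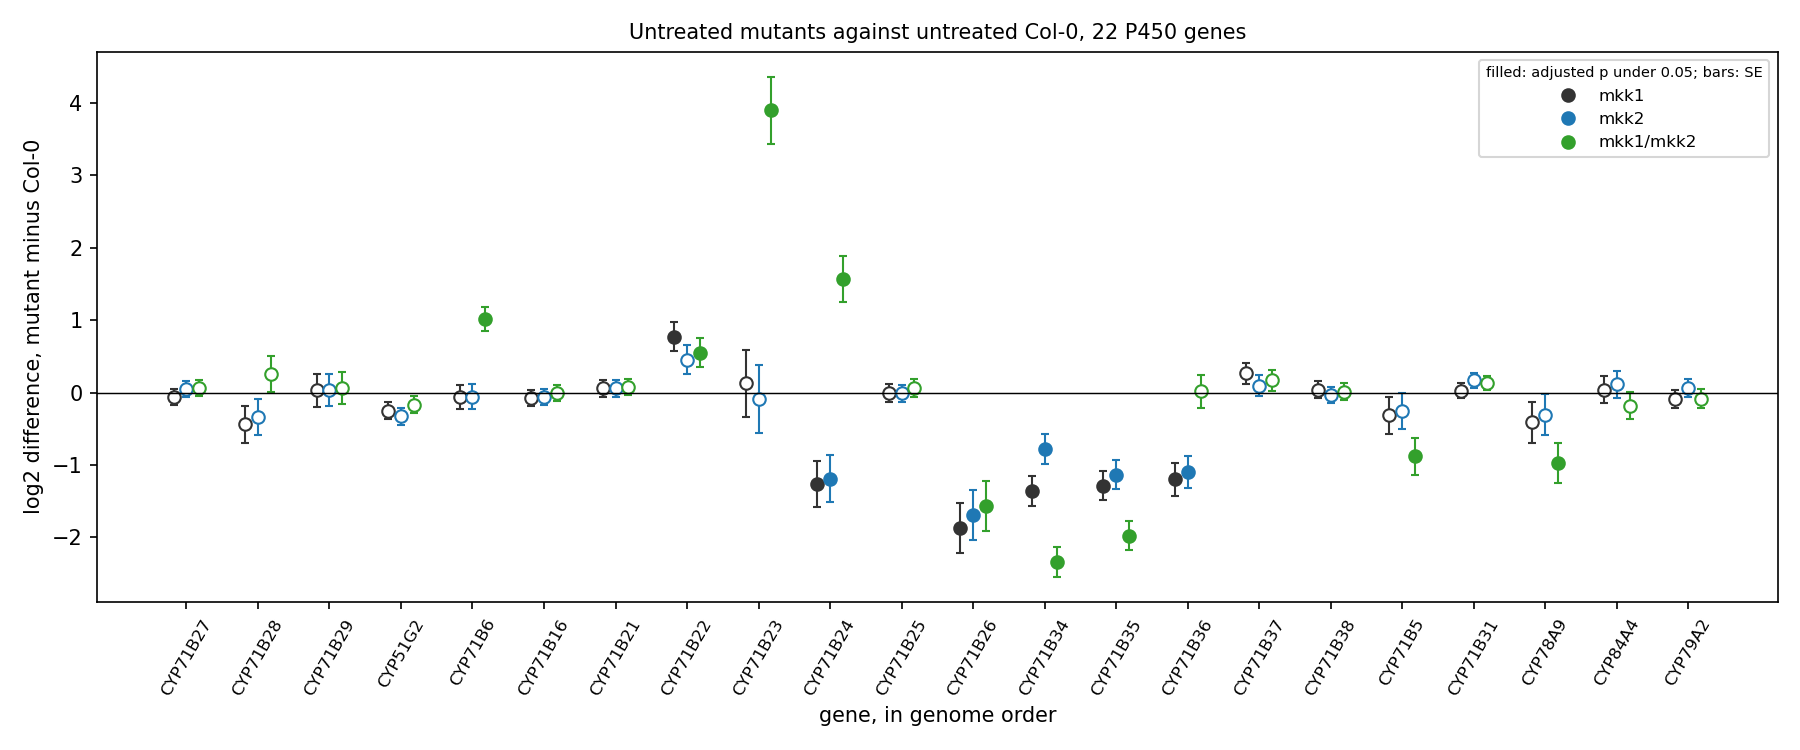
The log2 difference between each untreated mutant and untreated Col-0 (vertical axis) is drawn for the 22 P450 genes in genome order, with standard errors as bars and filled points for an adjusted p under 0.05. In mkk1/mkk2 CYP71B23 reaches 3.90 and CYP71B34 lies at -2.34, while mkk1 and mkk2 lie near 0 for CYP71B23 (0.13 and -0.09).

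After BTH, mkk1 and mkk2 did not differ from Col-0 after BTH in any member that was called. For mkk1 the count by limma was 0, against 0.62% of all probe sets called. For mkk2 it was 0, against 1.83%. At an unadjusted p under 0.05 there were 5 members for mkk1, beside 3657 of all 22746 probe sets. For mkk2 there were 6 members, beside 3686 probe sets. The smallest adjusted p values were 0.112 for CYP71B36 in mkk1 (-0.74 ± 0.22) and 0.0674 for the same gene in mkk2 (-0.81 ± 0.22). CYP71B26 differed by -1.13 and -1.22 (adjusted p = 0.116 and 0.0731). Without replicate A of untreated mkk1/mkk2, which takes part only through the shared estimate of the spread, CYP71B26 and CYP71B34 were called in mkk1 and CYP71B26 and CYP71B36 in mkk2, all lower.

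Between mkk1/mkk2 and Col-0 after BTH, 1 member was called higher and 4 lower, against 21.6% of all probe sets, 11.4% higher and 10.2% lower. CYP71B34 (-1.34 ± 0.21, adjusted p = 7.40e-05), CYP71B35 (-0.81 ± 0.20, adjusted p = 0.00594) and CYP71B36 (-1.23 ± 0.22, adjusted p = 0.000409) were lower, with no overlap of arrays. CYP71B23 and CYP71B24 were not called here, with differences of 0.82 and 0.70 (adjusted p = 0.244 and 0.138). The count rose to 8 without replicate A of untreated mkk1/mkk2, when CYP71B23 (adjusted p = 0.0467), CYP71B24 (0.0361) and CYP84A4 (0.0211) were added. That array takes part here only through the shared estimate of the spread, and the differences themselves were unchanged. The share of all probe sets called in that fit is not given, so the rise is not read as a result about these members. The gene called higher was CYP71B6.

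CYP71B6 (AT2G24180) oxidizes indole-3-acetonitrile, an intermediate shared by camalexin and other indolic compounds, towards indole carboxylic acids. It read 7.76, 7.88 and 8.07 in untreated Col-0 and 8.36, 8.37 and 8.62 after BTH. These arrays did not overlap, and the rise of 0.55 ± 0.17 missed the threshold (adjusted p = 0.0524), or passed it without replicate A of untreated mkk1/mkk2 (0.0113). In mkk2 the values went from 7.91, 7.73 and 7.89 to 8.60, 8.31 and 8.49 and the rise was called (0.62 ± 0.17, 1.54-fold, adjusted p = 0.0214). The call was lost without replicate A or B of untreated mkk2 or replicate A or C of mkk2 after BTH. In mkk1 it was 0.48 and in mkk1/mkk2 0.55, neither of them called (adjusted p = 0.0930 and 0.248). Without replicate A of untreated mkk1/mkk2 the rise in mkk1 was called (adjusted p = 0.0261) and the value in mkk1/mkk2 was 0.33. The response of mkk1/mkk2 differed from that of Col-0 by 0.00, with an interval from -0.50 to 0.51.

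The level of CYP71B6 was higher in mkk1/mkk2 before and after treatment. Untreated mkk1/mkk2 read 8.48, 9.21 and 9.07, all above untreated Col-0 (1.02 ± 0.17, 2.02-fold, adjusted p = 9.42e-05). After BTH the arrays of mkk1/mkk2 read 9.68, 9.43 and 9.30, all above Col-0 after BTH (1.02 ± 0.17, 2.03-fold, adjusted p = 0.000178). In untreated mkk1 and mkk2 the gene differed from Col-0 by -0.06 each.

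CYP78A9 (AT3G61880), one of the CYP78A enzymes, which promote growth of floral organs, fruits and seeds, was lower in mkk1/mkk2. It read 6.59, 6.98 and 6.99 in untreated Col-0 and 5.86, 6.02 and 5.76 in untreated mkk1/mkk2, with no overlap (-0.97 ± 0.28, 1.96-fold lower, adjusted p = 0.0104). After BTH it read 5.64, 6.71 and 7.20 in Col-0 and 5.34, 5.63 and 5.29 in mkk1/mkk2 (-1.10 ± 0.28, adjusted p = 0.00714). The lowest Col-0 BTH array lay 0.01 above the highest array of mkk1/mkk2, and the call after BTH was lost without replicate C of Col-0 after BTH. In the 4 BTH comparisons the gene differed by -0.46 to 0.35 and was not called.

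The other members with a known role, and CYP51G2, were not called in any comparison with all arrays. CYP84A4 (AT5G04330), an enzyme of arabidopyrone synthesis, had group means from 5.43 to 5.91. It was not called, with -0.18 in untreated mkk1/mkk2, where replicate A read 6.27 and replicates B and C 5.36 and 5.23, and without replicate A it was called lower (-0.51, adjusted p = 0.00247). CYP79A2 (AT5G05260), which turns phenylalanine into phenylacetaldoxime for benzylglucosinolate, had group means from 3.60 to 3.82. CYP71B31 (AT3G53300), which oxidizes the floral scent compound linalool, had group means from 2.90 to 3.11. CYP51G2 (AT2G17330), a relative of the sterol 14-demethylase CYP51G1, had group means from 4.22 to 4.55, and its largest difference from untreated Col-0 was -0.33 in mkk2 (adjusted p = 0.0922, or 0.0489 without replicate A of untreated mkk1/mkk2).

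Low signal limits what can be said of many members. The lower quartile of an array lay between 3.95 and 4.19. CYP71B27, CYP71B16, CYP71B21, CYP71B37, CYP71B31 and CYP79A2 were below it on all 24 arrays and CYP71B25 on 23. The deposited values carry no detection calls, so that a flat line at this level does not separate an unexpressed gene from one below the reach of its probes. CYP71B38 had group means from 4.28 to 4.41. CYP71B28 and CYP71B29, neighbours on chromosome 1, had group means from 6.25 to 7.10 and from 5.43 to 5.89, and neither was called in any comparison with all arrays. Without replicate A of untreated mkk1/mkk2, CYP71B28 was called higher with BTH in mkk1 (0.64, adjusted p = 0.0406) and in untreated mkk1/mkk2 against Col-0 (0.60, adjusted p = 0.0444).

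By subfamily and position, the called members counted as follows, with no test of the difference between these sets. In Col-0 after BTH the 5 called genes were 5 of 11 in the stretch, 5 of 18 in CYP71B and 0 of the 4 other members. In untreated mkk1/mkk2 they were 6 of 11, 8 of 18 and 1 of 4. Of all probe sets 8.82% were called in the first comparison and 33.3% in the second, and 4 members are too few to set against these shares. Within the stretch the directions were mixed in each of these comparisons, with 3 up and 2 down after BTH in Col-0 and 3 up and 3 down in untreated mkk1/mkk2. The members of the stretch share sequence, and cross-hybridization between their probe sets was not tested.

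Other genes of the pathways in which P450 enzymes act were counted in the same comparisons. Of the genes listed for other steps of these pathways 18 were measured, and of 10 listed electron donors (reductases and cytochrome b5) 0 were. BTH was followed by 0 higher and 2 lower in Col-0, 1 and 4 in mkk1, 1 and 1 in mkk2 and 0 and 0 in mkk1/mkk2, where 8.82%, 8.57%, 10.7% and 0.334% of all probe sets were called. In untreated mkk1/mkk2 against Col-0, 2 were higher and 8 lower of 18, where 33.3% of all probe sets were called, and no test of the list was made.

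In the glucosinolate pathway BCAT4, the aminotransferase that starts methionine chain elongation, read 8.74, 8.98 and 8.57 in untreated mkk1/mkk2 against 11.50, 11.15 and 11.26 in Col-0 (-2.54 ± 0.33, adjusted p = 5.31e-06), and GSTU20, a glutathione transferase gene, differed by -1.32 ± 0.17. In the jasmonate list JMT, which methylates jasmonic acid, differed by -2.68 ± 0.36 and the transcription factor gene ORA47 by -2.47 ± 0.36. The low level of ORA47 was shared by the single mutants, with untreated means of 6.40 in mkk1 and 6.53 in mkk2. The untreated means were 6.15 in mkk1/mkk2 and 8.62 in Col-0. ORA47 also fell in Col-0 after BTH, by 1.90. GID1B, a gibberellin receptor gene, was higher in untreated mkk1/mkk2 (2.35 ± 0.30), and UGT71B6, whose product glucosylates abscisic acid, was higher there (1.52 ± 0.19) and after BTH in mkk1 (0.79) and mkk2 (1.0). Of the flavonoid genes, DFR and UF3GT fell after BTH in mkk1 (-2.43 ± 0.53 and -2.08 ± 0.27).

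Tissue markers moved with some of these results. In whole-plant RNA, fewer cells of a type and less RNA per cell cannot be told apart. Of the listed markers 8 were measured, with 1 of 15 for root, 3 of 14 for leaf and 1 of 4 for senescence. For epidermis and for vascular tissue 0 of 6 each were measured, so that most tissues rest on 1 gene or on none. In untreated mkk1/mkk2 against Col-0 1 marker was higher and 4 lower, where 33.3% of all probe sets were called. Between mkk1/mkk2 and Col-0 after BTH 2 were higher (PYK10 and SAG29) and 2 lower (LHCB4.3 and SBPASE), where 21.6% of all probe sets were called. The summed log2 level of the 3 leaf markers (LHCB4.3, PRK and SBPASE) lay between 29.0 and 31.1 in untreated mkk1/mkk2, between 29.4 and 29.7 in mkk1/mkk2 after BTH, and between 32.4 and 35.8 in the other 6 groups. PYK10, a root-abundant beta-glucosidase, read 7.76, 9.53 and 9.68 in untreated mkk1/mkk2, 8.37, 8.16 and 7.30 in untreated mkk1 and 4.23, 5.02 and 4.68 in untreated Col-0. The spread of PYK10 within other groups was wide, with 4.59, 8.52 and 4.67 in untreated mkk2. After BTH it read 7.24, 5.16 and 3.53 in Col-0 and 6.59, 7.21 and 4.82 in mkk2. It was called higher in untreated mkk1/mkk2 (4.35 ± 0.92) and untreated mkk1 (3.30 ± 0.92), and not with BTH in any genotype. SAG29, a senescence gene, fell by 1.95 after BTH in Col-0, from a mean of 7.36 to 5.41, and had means of 6.99 and 7.92 in mkk1/mkk2. The means of SAG29 also went from 6.66 to 5.75 in mkk1 and from 6.43 to 5.40 in mkk2, without overlap of the arrays. SAG29 was the 1 marker whose response differed between mkk1/mkk2 and Col-0 (2.89 ± 0.53, adjusted p = 0.00377), the comparison in which CYP71B23, CYP71B35 and CYP71B36 were called. HTB1 of dividing cells fell by 1.38 after BTH in mkk1, and the pollen marker AGL66 stayed between 3.45 and 4.22 on all arrays. Of the 8 markers 0 were called with BTH in mkk2, where 10.7% of all probe sets were called. The part of these markers in the changes with BTH and in the differences between mkk1/mkk2 and Col-0 was not tested.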

How the data were processed

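Biotin-labelled RNA of 24 whole-plant samples was measured on ATH1 arrays. The authors deposited log2 values made with RMA (robust multi-array average, which corrects background, normalizes by quantiles and summarizes each probe set), per the submitters' processing notes. Values are given to 2 decimals, and the version and the arrays normalized together are not given in the sources used here. Quantile normalization sets changes relative to all probe sets, and no second transformation was made.

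Of 22810 probe sets, 64 control probe sets were set aside and 22746 were tested. The annotation gave 1 gene symbol for 13513 probe sets, several for 503 and none for 8730, and 13436 of the 13513 were found in the reference table, used only for names and gene order. A stretch was a run of members with at most 10 other genes between neighbours. With limma 3.58.1 (lmFit, eBayes, trend off), run under R 4.3.3 (tables read by data.table, version 1.17.8), 8 group means were fitted to all 24 arrays together, which share 1 estimate of the spread. The 13 comparisons were BTH against untreated (4), mutant against Col-0 without treatment (3) and after BTH (3), and the BTH response of a mutant minus the Col-0 response (3). P-values were two-sided and adjusted by Benjamini-Hochberg over all 22746 probe sets, separately per comparison, and intervals are 95% limits from the fit, not adjusted. The calculation was tested on simulated data. Precision is limited by having 3 arrays a group.

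Members, gene lists and markers were chosen with earlier results of these data known. Named genes were the called members, all CYP71 members, members on the role lists and, from each pathway list, up to 4 called genes with the largest change. The symbol CHI was left out of a pathway list because in the annotation it names a chitinase. Identical values were found in 0 pairs of arrays. Replicate letters were checked as pairs by correlating deviations from the group means over probe sets. A comparison counted as paired only where the correlations of A, B and C all passed a small positive cut-off. By this rule only mkk1/mkk2 before and after BTH was paired (0.31, 0.29 and 0.17 for A, B and C). Single correlations were higher elsewhere, as 0.61 for B and 0.32 for C of mkk2 before and after BTH, where that of A was -0.06. Within a group the deviations of A, B and C are not independent, so the rule does not settle which samples were paired. Alternatives were array weights, a replicate block, a filter on level, repeated quantile normalization, averaging a gene's probe sets, fits on a comparison's own arrays, and fits without 1 array or without the 3 arrays that stood apart. No sequence is printed, as no sequence table was used here.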

Additional observations from a re-analysis of the deposited data

Results flagged for a closer look

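For 3 genes the BTH response was called different between mkk1/mkk2 and Col-0 by a test of the difference itself. Of all probe sets 2.33% were called in this comparison. CYP71B23 differed by -3.08 ± 0.66 (adjusted p = 0.0133), CYP71B36 by -1.25 ± 0.32 (adjusted p = 0.0420) and CYP71B35 by 1.17 ± 0.29 (adjusted p = 0.0328). The calls of CYP71B35 and CYP71B36 were lost in 11 and 17 of 30 other settings, and that of CYP71B23 in 1 of 31. On the arrays of the comparison alone, none of these calls was kept. CYP71B23 and CYP71B36 rose with BTH in Col-0 by 3.54 and 0.90 and differed by 0.46 and -0.35 in mkk1/mkk2, where neither was called, and CYP71B35 fell by 1.06 in Col-0 and differed by 0.11 in mkk1/mkk2, also not called. Without replicate A of untreated mkk1/mkk2 these values in mkk1/mkk2 were -0.32, -0.50 and -0.06. On untreated plants the means of CYP71B23 were 4.37 in Col-0 and 8.27 in mkk1/mkk2, those of CYP71B36 were 5.42 and 5.44, and those of CYP71B35 were 6.59 and 4.61.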

How the results depend on the processing

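Of 40 calls of a member in a comparison, 23 were kept in every one of 31 settings that gave a value, 17 were lost in at least 1 and 0 changed sign. CYP71B23 kept its BTH calls in Col-0, mkk1 and mkk2 and its call in untreated mkk1/mkk2 in all 31, and its difference in response lost the call in the fit on the comparison's own arrays (adjusted p = 0.0842). The share of all probe sets called under each setting is not given here, so moves in the counts are not read as results about the members. Counts of called members moved by more than 1.5 times as follows. With array weights they were 5 for BTH in mkk1, 8 for BTH in mkk2 and 1 for mkk2 against Col-0 after BTH. Without the 3 arrays that stood apart in an earlier analysis (mkk1/mkk2 untreated A, Col-0 BTH A and mkk2 untreated B) they were 5 for BTH in mkk1, 1 for mkk1 against Col-0 after BTH and 1 for mkk2 against Col-0 after BTH. On a comparison's own arrays they were 0 for untreated mkk2, 2 for mkk2 against Col-0 after BTH and 0 for the response of mkk1/mkk2 against that of Col-0. With only probe sets at or above the median level, which leaves out CYP71B35, CYP71B36 and CYP71B5, they were 3 for untreated mkk2, 3 for mkk1/mkk2 against Col-0 after BTH and 1 for the response of mkk1/mkk2. The causes of the other moves were not tested. Leaving out 1 array gave 3 to 7 for BTH in Col-0, 3 to 5 for BTH in mkk1, 3 to 5 for BTH in mkk2, 1 to 6 for untreated mkk2, 0 to 2 for mkk1 and for mkk2 against Col-0 after BTH, 4 to 8 for mkk1/mkk2 against Col-0 after BTH and 1 to 4 for the response of mkk1/mkk2. Without replicate A of untreated mkk1/mkk2 they were 5 for BTH in mkk1 and 2 for mkk1 and for mkk2 against Col-0 after BTH. The response count was 1 without any 1 of the 3 Col-0 BTH arrays or the 3 mkk1/mkk2 BTH arrays. With the replicate block the response of mkk1/mkk2 against Col-0 had 2 called members, as CYP71B36 lost its call (adjusted p = 0.0570), and the block ended no other call. Averaging a gene's probe sets changed no member, as each has 1.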

Other observations

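A probe set shared by CYP71B19 and CYP71B20 was left out of the members because its signal cannot be assigned to 1 gene. It read 6.79, 7.0 and 7.64 in untreated Col-0 and 8.14, 8.54 and 8.99 after BTH (1.41 ± 0.29, adjusted p = 0.00342). With BTH it rose by 1.95 ± 0.29 in mkk1 (adjusted p = 0.000175) and by 1.85 ± 0.29 in mkk2 (adjusted p = 0.000189). In mkk1/mkk2 it read 8.53, 9.85 and 9.51 untreated and 10.01, 10.01 and 9.88 after BTH, a difference of 0.67 that was not called (adjusted p = 0.370), or 0.29 without replicate A of the untreated group (adjusted p = 0.885). The response of mkk1/mkk2 minus that of Col-0 was -0.74, with an interval from -1.60 to 0.12, and was not called (adjusted p = 0.501). Untreated mkk1/mkk2 was higher than untreated Col-0 by 2.15 ± 0.29 (adjusted p = 7.71e-06). After BTH mkk1/mkk2 was higher than Col-0 by 1.41 ± 0.29 (adjusted p = 0.00127). The probe set shared by CYP79C2 and a neighbouring locus stayed between 3.36 and 3.91 and was not called in any comparison.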
